A study of Rattus norvegicus with 6 samples.

Results

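The genes described here encode enzymes of the mevalonate pathway and of sterol synthesis: Hmgcs1, Mvk, Mvd, Idi1, Fdps, Fdft1, Sqle and Cyp51, in the order in which they act. Every probe set was taken whose platform annotation names exactly 1 gene and that gene is on this list. This gave 18 probe sets for 7 of the 8 genes, out of 7006 probe sets with 1 gene symbol for 4736 genes. No probe set was named for Hmgcs1, the cytosolic synthase of the pathway, so its expression was not analysed here. The annotation rule itself uses no measured value, but the genes were proposed with earlier results of these data known, so their counts are given beside those of all tested probe sets as a description.

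The mevalonate pathway builds isoprenoid units from acetyl-CoA. Its products are used for cholesterol and for the prenyl anchors that hold small GTPases and G protein gamma subunits at membranes. Most of its genes are induced together by the transcription factor SREBP-2 when sterols in the endoplasmic reticulum are low. Mevalonate kinase (Mvk) and mevalonate diphosphate decarboxylase (Mvd) make isopentenyl diphosphate, which the isomerase Idi1 interconverts with its allylic isomer. Farnesyl diphosphate synthase (Fdps) makes the last precursor shared by sterols and prenyl groups. Squalene synthase (Fdft1) and squalene epoxidase (Sqle) commit it to sterols, and Cyp51 is the lanosterol demethylase.

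Cardiac fibroblasts in primary culture came from ventricles of Sprague-Dawley rats aged 1 to 2 days. A group of 3 cultures was treated with pertussis toxin (PTX) for 24 h, and the control group of 3 cultures received water. PTX ADP-ribosylates the alpha subunits of Gi and Go proteins, which can then no longer be activated by their receptors; the sources used here name no dose. With 1 single-colour Affymetrix array per culture, values are GCOS signals per probe set. Separate isolations of cells are not recorded, so p-values cover the spread between cultures as labelled, which could be technical. The strain of PTX replicate 3 is written SD in the labels.

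Across the arrays the median signal was 63.1 to 68.85, and precision is limited by having 3 arrays per group. Control replicate 1 stood apart, with Pearson correlations of 0.952 to 0.960 with the other arrays across all probe sets, against 0.978 to 0.985 among the other 5, so every member's change is given with and without it. Probe sets also differed by name. The 2960 tested probe sets whose names do not begin with rc_ had log2 changes with a median of -0.10 (-0.05 when control replicate 1 was left out), and the 2284 named rc_ had 0.13 (0.05 when it was left out). None of the 18 probe sets here belongs to the rc_AA799 and rc_AA800 or the rc_AA892 to rc_AA894 name classes that were low on that array. Markers of the labelled cell type were present, with Col3a1 at 17300.5 ± 1486 in PTX and 20222 ± 1932 in control cultures (SD, n = 3 each). Cardiomyocyte markers were bright as well: 9 of 10 were tested and all 9 lay in the top 5% of signals on every array.

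In the PTX cultures, at least 1 probe set each of Mvk, Mvd, Fdps and Cyp51 had signals below those of every control culture, those of Sqle and Fdft1 overlapped with the controls or were split between directions, and Idi1 leaned the other way. Changes are differences of mean log2(signal + 16), PTX minus control. Probe sets were tested if their mean on that scale over the 6 arrays reached the 40th percentile of all, which 17 of the 18 did; the exception is a faint one of Idi1. Of the 17, none passed an adjusted p of 0.05 in limma, in either direction, with or without control replicate 1. Among all 5244 tested probe sets, 0.00% were called lower and 0.0763% higher, or 0.343% and 1.87% without that array. At an unadjusted p under 0.05, 7 of the 17 were lower and 1 was higher, where 4.61% and 7.97% of all tested probe sets were. PTX and control values were fully separated for 8 of the 17: 7 were lower with PTX, where 10.6% of all tested were, and 1 was higher, where 12.0% were. Of the 17 log2 changes 13 were negative, against 52.9% of all tested, and their median was -0.30, against -0.02 over all tested. Probe sets of 1 gene are not independent. Counted by the brightest tested probe set of each of the 7 genes, 6 were negative, with a median of -0.43. Of these 7, 4 were lower without overlap and 0 higher, against the same 10.6% and 12.0%. In limma 4 were lower and 0 higher at an unadjusted p under 0.05, against 4.61% and 7.97%.

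With control replicate 1 left out, the median of the 17 probe sets was -0.29, against -0.01 over all tested, and 14 of 17 were negative, against 52.3%. The values did not overlap for 8 lower probe sets, against a background of 15.8%, and for 1 higher, against 16.9%. At an unadjusted p under 0.05, 7 were lower and 0 higher, against 5.70% and 9.52% of all tested. Because probe sets not named rc_ leaned downwards in general, the 10 members of that kind are set against their own class. Of these, 9 were negative, with a median of -0.36, where 65.2% of the class were negative. In 6 of the 10 all PTX values lay under all control values, where 13.6% of the class did, and the count was again 6 without control replicate 1, where 18.7% of the class did. At an unadjusted p under 0.05, 6 were lower, against 5.98% of the class. The 7 members named rc_ were split: 4 were negative and 3 positive, where 36.9% of the probe sets named rc_ were negative, and their median was -0.07 with all arrays and -0.26 without that array. Among them 1 was lower without overlap, where 6.70% of that class were, and 1 was higher, where 20.1% were. At an unadjusted p under 0.05, 1 of the 7 was lower and 1 higher, against 2.85% and 13.7% of that class. The rc_ background includes the rc_AA799 and rc_AA800 and the rc_AA892 to rc_AA894 name classes, which hold none of the members and leaned upwards. In the name classes of the 7, rc_AA9, rc_AI and rc_H, 53.4%, 49.9% and 38.7% were negative. Lower without overlap were 13.6%, 9.58% and 8.0% of these classes, and higher were 5.08%, 6.44% and 14.7%.

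**Figure D1:**
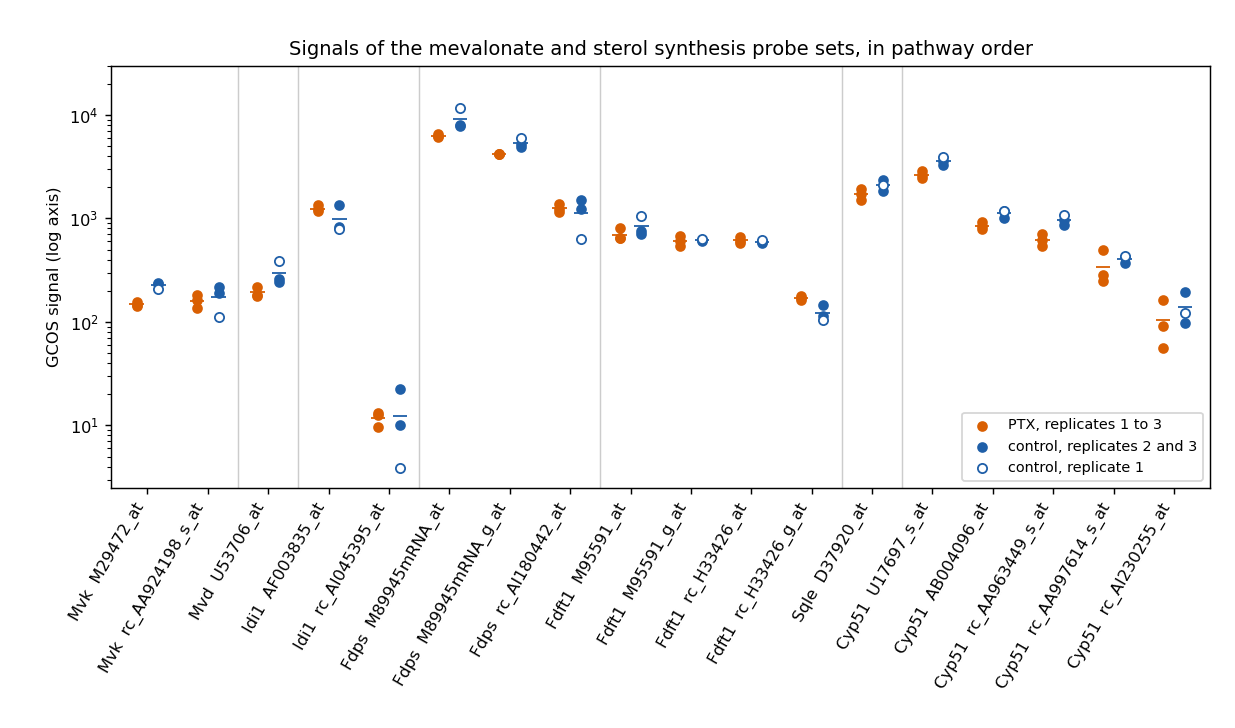
GCOS signal (log axis) of each of the 18 probe sets in pathway order, with the PTX cultures left and the control cultures right within each probe set, 1 point per array and a line at the group mean. Control replicate 1 is drawn as an open circle, and levels cannot be compared between probe sets.

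The promoters of the 4 genes with the lower probe sets are shown because these genes leaned the same way. They were read from the RefSeq promoter table of the assembly GRCr8, which matched 6 of the 8 genes, and run 5′ to 3′ from 250 bases before the start site to 50 after it. Capitals mark a CCAAT box (CCAAT on either strand, so also ATTGG) or a GC box (GGGCGG on either strand, so also CCGCCC); the marked sites do not overlap.
Mvk, chr12:47819454-47819753, minus strand: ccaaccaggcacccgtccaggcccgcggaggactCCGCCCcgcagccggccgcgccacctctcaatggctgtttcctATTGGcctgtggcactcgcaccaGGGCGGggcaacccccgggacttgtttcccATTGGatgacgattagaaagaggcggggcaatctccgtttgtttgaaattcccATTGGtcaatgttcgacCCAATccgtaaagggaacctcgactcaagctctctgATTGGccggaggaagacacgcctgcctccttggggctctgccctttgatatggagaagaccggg
Mvd, chr19:67414925-67415224, minus strand: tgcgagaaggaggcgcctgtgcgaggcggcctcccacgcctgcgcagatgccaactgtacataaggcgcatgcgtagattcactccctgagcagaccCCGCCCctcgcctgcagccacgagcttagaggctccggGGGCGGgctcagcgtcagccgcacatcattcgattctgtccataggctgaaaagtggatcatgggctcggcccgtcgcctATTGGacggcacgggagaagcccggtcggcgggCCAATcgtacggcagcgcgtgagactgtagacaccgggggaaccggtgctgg
Fdps, chr2:176804767-176805066, minus strand: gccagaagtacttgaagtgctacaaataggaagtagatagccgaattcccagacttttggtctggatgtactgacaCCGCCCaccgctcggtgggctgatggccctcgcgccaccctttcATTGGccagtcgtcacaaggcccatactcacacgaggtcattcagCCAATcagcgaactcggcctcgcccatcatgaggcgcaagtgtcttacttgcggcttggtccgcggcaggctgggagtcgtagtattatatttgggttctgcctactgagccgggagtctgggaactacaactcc
Cyp51, chr4:30991443-30991742, plus strand: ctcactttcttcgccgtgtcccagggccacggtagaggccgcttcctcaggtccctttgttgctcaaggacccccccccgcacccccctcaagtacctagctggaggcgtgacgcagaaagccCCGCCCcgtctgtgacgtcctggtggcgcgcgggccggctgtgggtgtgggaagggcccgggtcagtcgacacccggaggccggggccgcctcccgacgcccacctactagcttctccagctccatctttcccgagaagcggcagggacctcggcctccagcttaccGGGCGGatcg
The Mvk window held 5 CCAAT boxes and 2 GC boxes, that of Mvd 2 of each, that of Fdps 2 CCAAT boxes and 1 GC box, and that of Cyp51 2 GC boxes only. Of the 6 promoters found for the 8 genes, 5 held a CCAAT box, which 37.4% of the 2847 promoters of tested genes did, and 5 held a GC box, which 64.1% did. The 6 include that of Hmgcs1, which has no probe set here and whose window held both kinds of box. Fdft1 and Sqle had no promoter in the table. The Idi1 window held 2 CCAAT boxes and no GC box. The sterol regulatory element letters TCACNCCAC were in 0 of the 6 windows and in 0.983% of the promoters of tested genes. Only exact matches to these letters were searched, so other forms of the element would be missed and their absence is not shown. These letter matches are a description of the windows and say nothing of binding.

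Mvk, which phosphorylates mevalonate, had signals of 156, 145 and 141 in the PTX cultures, against 209.7, 234.5 and 237 in the control cultures, on M29472_at. All 3 PTX values were lower than all controls, and control replicate 1 was the nearest of the controls. The means were 147.5 ± 7.81 with PTX and 227 ± 15.1 in control (SD, n = 3 each), giving a log2 change of -0.57 ± 0.14 (SE; limma adjusted p = 0.230). Only 2.52% of all tested probe sets ranked at or below it. Without control replicate 1 it had a log2 change of -0.62 (adjusted p = 0.0674).

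The other Mvk probe set, rc_AA924198_s_at, read 183, 161.5 and 136 with PTX, against 113, 218 and 189 in the control cultures. Here the groups overlapped through control replicate 1, which was the lowest of the 6 values; the other controls lay above every PTX value. Its log2 change was -0.07 (95% interval -0.64 to 0.50, adjusted p = 0.909), or -0.32 (-0.71 to 0.06, adjusted p = 0.417) without that array. Probe sets named rc_AA9, of which 118 were tested, were lower on control replicate 1 than on the other controls by a median log2 difference of -0.18, and this probe set by -0.77.

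Mvd makes isopentenyl diphosphate by decarboxylation and has 1 probe set, U53706_at. Its signals were 178, 216 and 183 with PTX, against 387, 240.4 and 259.7 in the control cultures. Every PTX value was lower than every control, with control replicate 1 far above the rest. The means were 192.5 ± 20.8 with PTX and 296 ± 79.9 in control (SD, n = 3 each), a log2 change of -0.56 ± 0.20 (SE, limma adjusted p = 0.360). Leaving out control replicate 1 brought the log2 change to -0.36 (adjusted p = 0.300), and the groups still did not overlap.

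Idi1, the isomerase, was the exception among the early enzymes. On AF003835_at it had 1229, 1168 and 1341 with PTX, against 786, 827 and 1344 in the control cultures. The PTX values were close together, while the controls were spread, with replicate 3 as high as the highest PTX culture. The log2 change was 0.37 (95% interval -0.12 to 0.86, limma adjusted p = 0.466), or 0.23 (-0.16 to 0.63, adjusted p = 0.572) without control replicate 1. The faint probe set rc_AI045395_at had 9.7, 13.3 and 12.5 with PTX, against 3.9, 10.2 and 22.7 in control, which spans the PTX range. Its log2 change in a fit with no filter was 0.03, or -0.20 without control replicate 1. It was left out of the counts because its mean lay under the 40th percentile of the probe sets. Whether Idi1 differs from Mvk or Mvd in its response was not tested. RefSeq lists 1 pseudogene named for Idi1 and 5 entries named as pseudogenes of Fdps, so signals of these genes could include such copies.

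Fdps was read by 3 probe sets, 2 of which carry the same accession in their names and so may share probes. M89945mRNA_at had 6215, 6537 and 6159 with PTX, against 11687, 8056 and 7874 in the control cultures. M89945mRNA_g_at had 4207, 4218.5 and 4166 with PTX, against 5934, 5187 and 4891.5 in the controls. On both, the PTX cultures lay close together and under every control, and control replicate 1 was the highest.

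The log2 change of M89945mRNA_at was -0.52 ± 0.17 (SE, limma adjusted p = 0.307), or -0.34 without control replicate 1 (adjusted p = 0.103). That of M89945mRNA_g_at was -0.34 ± 0.12 (SE, adjusted p = 0.336), or -0.26 without it (adjusted p = 0.214). The remaining probe set, rc_AI180442_at, had 1370.3, 1164 and 1230.5 with PTX, against 634, 1240.5 and 1513 in the controls. The low control is again replicate 1, and the groups overlapped with or without it. The log2 change was 0.24 (95% interval -0.44 to 0.92, adjusted p = 0.713), and it turned to -0.13 (-0.41 to 0.15, adjusted p = 0.670) without that array.

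Fdft1, the squalene synthase, had 4 probe sets, which came in 2 pairs of shared accession and did not lean one way. M95591_at had 643, 641 and 803 with PTX, against 1048, 706.5 and 762 in control. M95591_g_at had 547, 608 and 681 with PTX, against 636, 599 and 623 in control. Both overlapped, with log2 changes of -0.25 (95% interval -0.68 to 0.18) and -0.02 (-0.34 to 0.29), or -0.08 and -0.0044 without control replicate 1.

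The Fdft1 probe set rc_H33426_at had 657, 611 and 579.8 with PTX, against 619.5, 581 and 588 in control, a log2 change of 0.04 (95% interval -0.25 to 0.34), or 0.07 without control replicate 1. In contrast, rc_H33426_g_at had 179, 163 and 169.8 with PTX, against 104, 115 and 147 in control. Alone among the 17, it had every PTX value above every control. Its log2 change was 0.45 ± 0.17 (SE, limma adjusted p = 0.367), or 0.35 (adjusted p = 0.369) without control replicate 1. Over the 4 probe sets the limma adjusted p was 0.367 to 0.950.

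Sqle, which epoxidises squalene, had 1907, 1741 and 1499 with PTX on D37920_at, against 2086, 1850.1 and 2351.5 in the control cultures. The groups overlapped only because PTX replicate 1 lay above control replicate 2. The log2 change was -0.29 (95% interval -0.63 to 0.06, limma adjusted p = 0.449), and it was also -0.29 without control replicate 1 (adjusted p = 0.369).

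Cyp51 removes the 14-alpha methyl group of lanosterol and was read by 5 probe sets, all with a negative log2 change. U17697_s_at had 2469.5, 2880 and 2617 with PTX, against 3928, 3256 and 3588 in control. AB004096_at had 926, 837 and 789.5 with PTX, against 1171, 1184 and 1004 in control. The rc_ probe set rc_AA963449_s_at had 626, 705 and 545 with PTX, against 1084.5, 955 and 870.3 in control. In these 3 probe sets every PTX culture lay under every control culture.

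Their log2 changes were -0.43 ± 0.13 for U17697_s_at, -0.39 ± 0.14 for AB004096_at and -0.62 ± 0.15 for rc_AA963449_s_at (SE), with limma adjusted p of 0.296, 0.336 and 0.229. Without control replicate 1 they were -0.37, -0.35 and -0.54, with adjusted p of 0.132, 0.202 and 0.0738. The change of rc_AA963449_s_at was the most negative of the 17, in a name class (rc_AA9) whose median was -0.03, or -0.12 without that array. No other gene of the 7 had as many probe sets below all controls, but none had as many tested. For Cyp51 it was 3 of 5, for Mvd 1 of 1 and for Fdps 2 of 3. For Mvk it was 1 of 2, or 2 of 2 without control replicate 1.

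The other Cyp51 probe sets were noisier. On rc_AA997614_s_at the signals were 285, 249.7 and 494 with PTX, against 429, 423 and 371 in control, so that PTX replicate 3 was the highest of all and the other PTX cultures the lowest. On rc_AI230255_at they were 163, 91.2 and 56.3 with PTX, against 122, 97.2 and 196 in control, which overlapped. The log2 changes were -0.30 (95% interval -0.86 to 0.27, limma adjusted p = 0.593) and -0.42 (-1.26 to 0.43, adjusted p = 0.612), or -0.26 and -0.47 without control replicate 1.

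**Figure D2:**
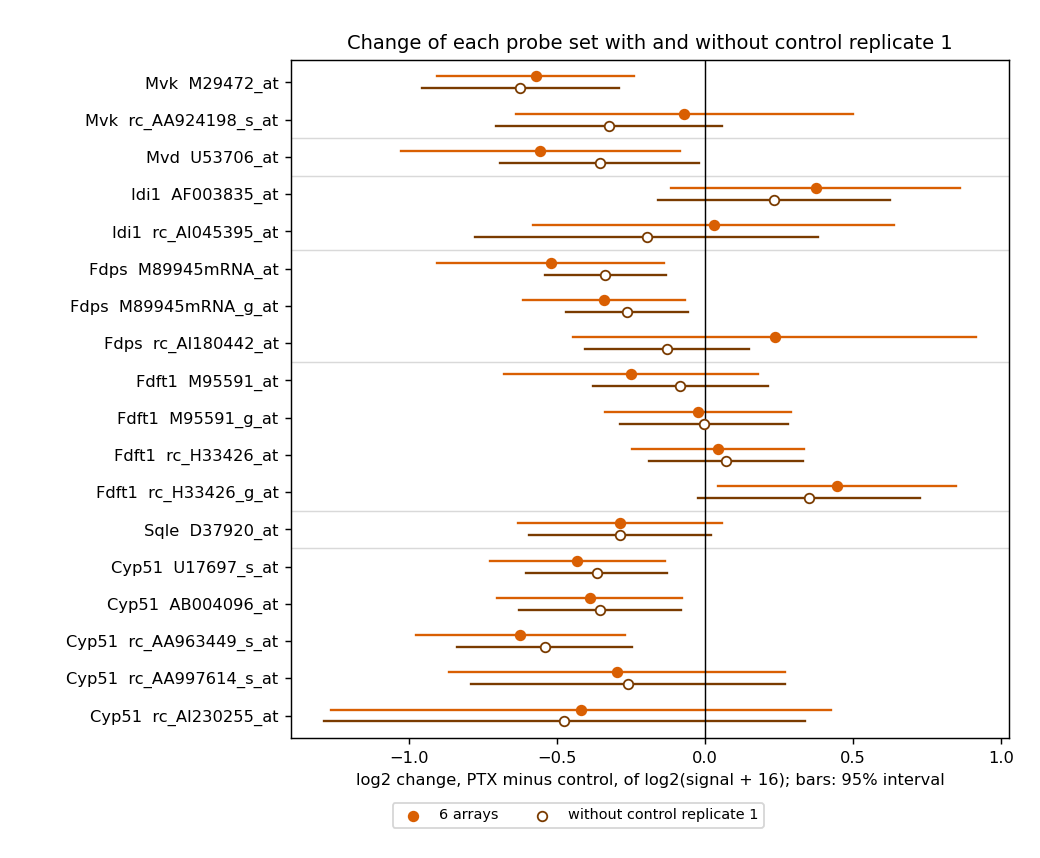
Log2 change, PTX minus control, of each probe set in pathway order from top to bottom, with the 95% interval from limma; filled points use 6 arrays and open points leave out control replicate 1. The changes of M29472_at, U53706_at, both M89945mRNA probe sets and 3 Cyp51 probe sets have intervals below 0 in both fits, before any adjustment for the number of probe sets tested; rc_AI045395_at comes from the fit with no filter.

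Array by array, the 17 probe sets had a median centred log2 value of -0.16, -0.12 and -0.23 in the PTX cultures and 0.18, 0.08 and 0.13 in the control cultures. Each value is the median over the probe sets of the deviation from that probe set's mean over the 6 arrays. Every PTX culture lay below every control culture, and control replicate 1 was the highest.

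**Figure D3:**
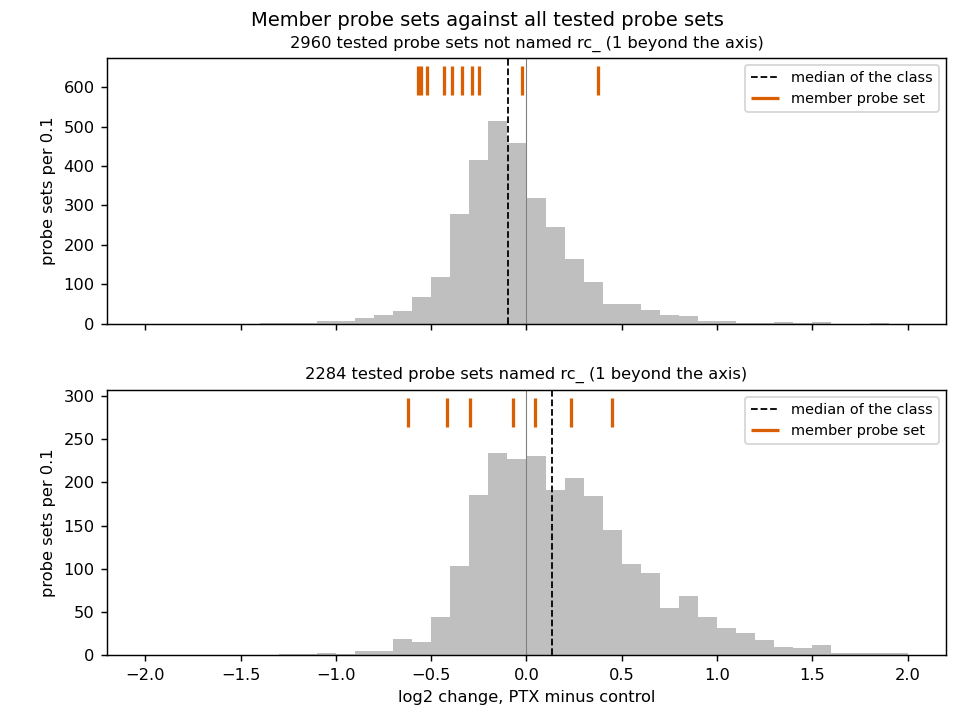
Distribution of the log2 change, PTX minus control, over the tested probe sets not named rc_ (top) and named rc_ (bottom), in bins of 0.1, with the member probe sets as ticks and the class median as a dashed line. Of the 10 members in the upper panel 8 lie below the class median of -0.10. Most of the 7 in the lower panel also lie below their class median of 0.13, and both panels have members on either side. That median of 0.13 includes name classes that hold none of the members. The medians of rc_AA9, rc_AI and rc_H were -0.03, 0.0002 and 0.08.

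None of the 9 tested cardiomyocyte markers passed in limma on any tested probe set, with or without control replicate 1. On the brightest probe set of each, the smallest adjusted p with all arrays was 0.375, for Myh7. There, 1 of 9 had an unadjusted p under 0.05. Other probe sets of Nppa, Tnni3 and Myh6 were also lower at an unadjusted p under 0.05 in limma. The smallest adjusted p among those was 0.3655, for Nppa. All 9 had negative log2 changes on their brightest probe set, where 52.9% of all tested probe sets and 65.2% of those not named rc_ were negative. Their median was -0.27, or -0.11 with 8 of 9 negative without control replicate 1. Their summed signal was 229648 to 260626 in PTX and 263628 to 350719 in control cultures, or 263628 to 271529 in the controls other than replicate 1. The brightest of them, Myl2, had a log2 change of -0.27, or -0.04 without that array. The 10 cardiac fibroblast markers had a median of -0.07, with 5 negative, and their summed signal was 75748 to 81632 in PTX and 77727 to 94417 in control cultures. Among them were large changes in both directions: Thy1, a surface glycoprotein, had a log2 change of -0.97 (limma adjusted p = 0.0743, or 0.00771 without control replicate 1). Lum, which encodes the matrix proteoglycan lumican, had 1.10 (adjusted p = 0.236 in limma). With control replicate 1 left out, the log2 change of Lum was 0.74 (limma adjusted p = 0.00646). The 4 tested macrophage markers summed to 1189 to 1284 in PTX and 940.0 to 1205 in control cultures. They were split, with 2 negative and a median of -0.05, or 1 negative and 0.08 without control replicate 1. The Fc receptor gene Fcgr2b had a log2 change of 0.88 (limma adjusted p = 0.0876, or 0.00771 without control replicate 1). On their brightest probe sets Cd14 had 0.15, C1qb -0.39 and C1qc -0.24. The 4 smooth muscle markers summed to 13455 to 14407 in PTX and 10295.5 to 15473.5 in control cultures (Acta2 had a log2 change of 0.59, or 0.03 without that array), and the only endothelial marker tested, Kdr, had 82.6 ± 26.2 with PTX and 84.8 ± 23.5 in control (SD, n = 3 each). The part of these cells in the values of the sterol genes was not tested, and in such bulk samples fewer cells of a type and less RNA per cell cannot be told apart.

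The remaining genes of sterol and isoprenoid metabolism were taken from 5 lists. Of their 56 tested probe sets, for 32 genes, 0 passed in limma in either direction with or without control replicate 1, the smallest adjusted p being 0.333 and 0.0674. At an unadjusted p under 0.05, 5 of the 56 were lower and 0 higher, against 4.61% and 7.97% of all tested. Without control replicate 1, 10 were lower and 0 higher, against 5.70% and 9.52%. For other enzymes of mevalonate and sterol synthesis, 13 of 15 probe sets of 9 genes were negative, with a median of -0.23, or -0.20 without control replicate 1. Counted by the brightest probe set of each gene, 7 of 9 were negative with a median of -0.14, or 6 of 9 with a median of -0.18 without that array. In 6 of these 15 probe sets all PTX values lay under all controls, where 10.6% of all tested probe sets and 13.6% of those not named rc_ did, and in 1 above them, where 12.0% of all tested did. Of those 6, none named rc_, 3 belong to Acat1, and by gene the counts were 2 of 9 lower and 1 higher. Msmo1, the sterol C4-methyl oxidase that acts after Cyp51, had 823, 994 and 1102 with PTX, against 1466, 1215 and 1307 in control on E12625cds_at (log2 change -0.45, adjusted p = 0.333). On its other probe set it had a log2 change of -0.12, or -0.29 without control replicate 1. The 3 probe sets of Acat1, a thiolase of mitochondria, had log2 changes of -0.28, -0.32 and -0.37. Nsdhl, a sterol dehydrogenase, had the reverse order of groups, with 137, 105.4 and 129 with PTX against 94.5, 91.6 and 92.9 in control (log2 change 0.35, adjusted p = 0.433).

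Among the genes of sterol sensing, Insig1, which retains the SREBP escort protein in the endoplasmic reticulum and is itself an SREBP target, had 1834, 1749 and 1776 with PTX, against 2349, 2373 and 2069 in control on L13619_at. All PTX values were lower, with a log2 change of -0.34 (limma adjusted p = 0.344), or -0.31 without control replicate 1 (adjusted p = 0.194). On L13619_g_at the groups overlapped, with a log2 change of -0.15, or -0.28 without that array. Srebf1, encoding SREBP-1, had a log2 change of 0.10, or 0.25 without control replicate 1. Mbtps2, a protease that releases SREBPs, had 0.36, or 0.04 without that array. Neither passed in limma (adjusted p = 0.822 and 0.607 with all arrays). The list as a whole had 2 of 4 probe sets negative and a median of -0.02, or -0.12 without control replicate 1.

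For sterol uptake, storage and export, 9 of 10 probe sets were negative, with a median of -0.21, or -0.08 without control replicate 1. The 3 genes with the smallest p were Scarb1, a lipoprotein receptor, Soat1, which esterifies cholesterol, and Cyp27a1, a sterol hydroxylase. Scarb1 had log2 changes of -0.73, -0.35 and -0.08, or -0.16, -0.21 and 0.02 without control replicate 1. Cyp27a1 had -0.21 and -0.29, or -0.21 and -0.40 without that array. Soat1 had 0.56, with 92.1, 89.6 and 92.1 with PTX against 23.8, 80.8 and 83.1 in control, and 0.13 without control replicate 1, which held the low value.

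Among genes that use isoprenoids, 8 of 11 probe sets were negative, with a median of -0.06. Cdc42, a small GTPase that is prenylated, had log2 changes of -0.28, -0.38 and -0.13 on its tested probe sets (smallest limma adjusted p = 0.383), and the farnesyltransferase subunit gene Fntb had -0.21 and -0.06. Rac1, another prenylated GTPase, had 0.90, or 0.08 without control replicate 1, read by an rc_AA799 probe set, a class with low signals on that array.

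SREBP target genes of fatty acid synthesis were negative for 11 of 16 probe sets, with a median of -0.08, or 5 of 6 genes and a median of -0.17 by the brightest probe set of each. Acly, which makes cytosolic acetyl-CoA, had 1419, 1431 and 1418 with PTX, against 1797, 1635 and 1754 in control on J05210_g_at (log2 change -0.28, adjusted p = 0.388), and 0.17 and -0.15 on its others. Scd, a stearoyl-CoA desaturase, had a log2 change of -0.35 (limma adjusted p = 0.426), or -0.49 without control replicate 1 (adjusted p = 0.0674). Scd2 was split, with log2 changes of -0.51 on AF036761_at and 0.40 on rc_AA875269_at, which had 0.08 without that array.

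**Figure D4:**
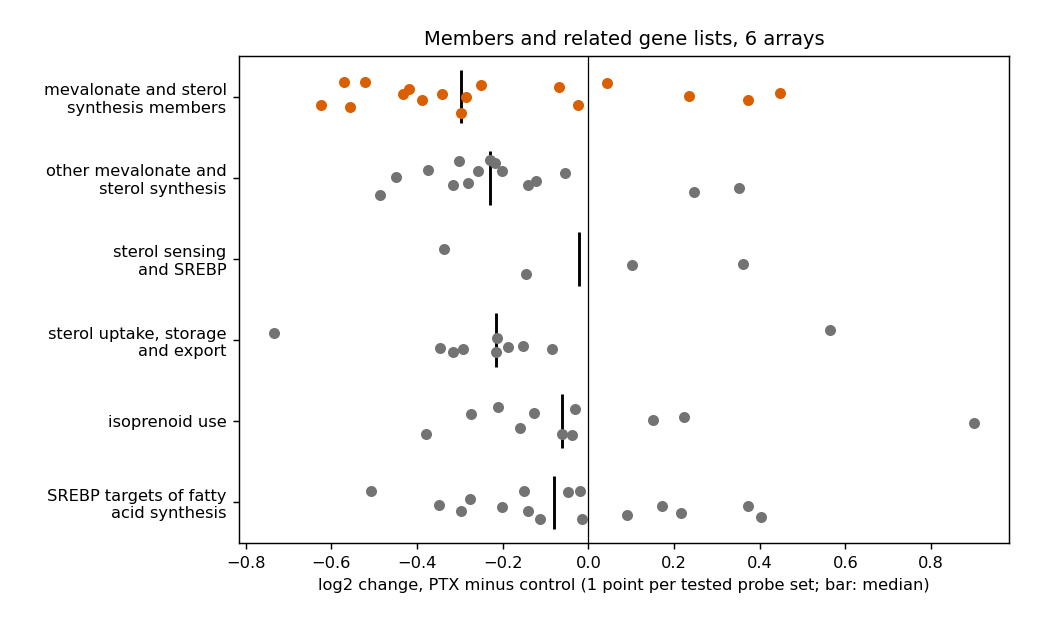
Log2 change, PTX minus control, of the 17 tested member probe sets (top row) and of the 56 tested probe sets of the 5 related lists, 1 point per probe set, with a bar at each row's median. The medians are -0.30 for the members, -0.23 for the other synthesis enzymes, -0.02 for sterol sensing, -0.21 for uptake, storage and export, -0.06 for isoprenoid use and -0.08 for fatty acid synthesis.

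The likeness of other genes was measured as Pearson's r over the 6 arrays with the mean standardised log2 profile of the 7 members, each by its brightest tested probe set. Idi1 ran against this profile (r = -0.477), so the profile mainly follows the other 6, whose own r was 0.731 to 0.961. Each member is itself part of the profile, which raises its r, so these values do not test how alike the members are. The 6 highest of 4364 probe sets with 1 gene symbol were of Ank3 (0.996), Ythdc1 (0.990), Col1a1 (0.989), Acly (0.982) and Phgdh (0.981 and 0.980). Phgdh, which starts serine synthesis, had 521, 486 and 493 with PTX, against 952, 703 and 835 in control on X97772_at (log2 change -0.70, limma adjusted p = 0.184). With 6 arrays that share 2 groups, r describes the order of these arrays and no more.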

How the data were processed

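Gene expression was measured on 6 arrays, 3 of PTX-treated and 3 of water-treated rat cardiac fibroblasts, grouped by sample title. Per the labels' protocols, biotin-labelled cRNA was hybridised to 1-colour arrays. GCOS, the Affymetrix software, is named in the submitters' processing notes, with version and scaling target not given in the sources used here. Linear signal intensities of 8740 probe sets were deposited by the authors. Their 2% trimmed means lay between 493 and 495, so no scaling was added, and no arrays were identical.

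Of the probe sets, 7006 have 1 gene symbol in the platform annotation, 308 have several and 1426 have none. For 6985 the Entrez identifier was found in the RefSeq table of GRCr8, and the symbol was taken from there, whether or not it differed. The gene coordinates of that table were not used.

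Signals were analysed as log2(signal + 16), which understates changes of low signals. The 5244 probe sets (3150 genes) at or above the 40th percentile of mean log2 were tested with limma 3.58.1 in R 4.3.3 (lmFit, eBayes with an intensity trend), two-sided, without a block, with Benjamini-Hochberg adjustment over all of them and a threshold of 0.05. Leave-out fits kept these probe sets. The procedure was tested on simulated data.

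The named genes are all members, up to 3 genes with the smallest p per related list (and any that passed), the brightest markers, and the 6 probe sets most like the members. The members and lists were chosen with earlier results of these data known, as were the name classes. Alternatives were other pseudocounts, filters, scalings, variance models, array weights, the replicate number as a block, probe set classes left out and each array left out.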

Additional observations from a re-analysis of the deposited data

How the results depend on the processing

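No member probe set passed under any of the 19 alternatives, where their smallest adjusted p was 0.0580 to 0.684. The median log2 change of the tested members was -0.36 to -0.27 over these alternatives, with 12 to 14 negative, and -0.36 to -0.29 with each array left out. The sign was the same throughout for 13 of the 17 probe sets. Fdft1 had -0.022 on rc_H33426_at with quantile normalization and 0.0072 on M95591_g_at with array quality weights, where Fdps had -0.033 on rc_AI180442_at. With each array left out, Mvk on rc_AA924198_s_at had -0.32 to 0.11, Fdps on rc_AI180442_at -0.13 to 0.49, and Fdft1 -0.10 to 0.053 on M95591_g_at and -0.0021 to 0.085 on rc_H33426_at. The cause was not tested.

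Over all probe sets, 4 passed, all higher. The count was 2 with a pseudocount of 1, 7 with 64, 2 with quantile normalization, 0 without a trend (615 at an unadjusted p under 0.05), 9 with robust variances, 81 with array quality weights, 8 without rc_AA799 and rc_AA800, 11 without the 5 prefixes, and 0 to 116 with each array left out. It was 116 without control replicate 1, 29 without control replicate 3 and 0 without PTX replicate 1, 2 or 3 (360, 375 and 376 at an unadjusted p under 0.05).

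With the replicate number as a block 0 passed in limma (552 at an unadjusted p under 0.05), and no member did. The block changed no member's call. Deviations of same-numbered samples from their group means correlated at -0.093, -0.11 and -0.0080. Those of samples with different numbers correlated at -0.048 to 0.10. With 3 arrays per group and control replicate 1 apart, these values cannot show whether the numbers pair the samples. Of the 18 probe sets, the faint one of Idi1 lay under the filter, and low signals of that kind limit what these arrays can show.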
